A study of Mus musculus with 10 samples.

Results

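Foxp3 works on chromatin together with other transcription factors, and 10 of those partners were followed here: Runx1, Runx3 and their shared subunit Cbfb, Ets1, the calcium-regulated factors Nfatc1, Nfatc2 and Nfatc3, and the regulators of T cell state Satb1, Bach2 and Foxp1. They were chosen by name, and all 10 were found among the 55809 gene rows of each library. The question the design puts to them is whether their mRNA levels in regulatory T (Treg) cells differed after the Foxp3 protein had been removed for 14 days. Bulk RNA-seq was read from 10 libraries of Treg cells from spleen and lymph nodes of mice. In all of them Foxp3 carried an auxin-inducible degron (AID), a tag that marks a protein for breakdown when the plant receptor TIR1 and an auxin analog are both present. The mice of both groups received that analog, 5-ph-IAA, over the 14 days. The 4 R26-WT libraries came from mice with an unmodified ROSA26 locus, which lack TIR1 and keep Foxp3. The 6 R26-TIR1(F74G) libraries came from mice that express TIR1(F74G), a form of the receptor fitted to 5-ph-IAA, from ROSA26 behind a stop cassette that Cre made from the Foxp3 allele removes. The degron acts in cells that express Foxp3 and on the protein, so the mRNA of Foxp3 does not check the labels. Its normalized counts were 6816 to 11779 in R26-WT and 6778 to 16059 in R26-TIR1(F74G), with a log2 fold change of 0.07 ± 0.25 (SE). The file headers name male mice, and the labels give no age. Foxp3 lies on the X chromosome, so males with the AID allele carry no other. For other experiments the paper used heterozygous females, to avoid possible effects of mildly raised inflammation in hemizygous males after Foxp3 degradation. The part of such inflammation in the values here was not tested. Treg cells of the 2 genotypes were in general sorted with different gates, with mCherry from the ROSA26 allele added in R26-TIR1(F74G), and the gate used for these libraries was not stated.

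Libraries held 24158699 to 54795718 counted read pairs, and the least abundant of the 10 genes still had 1078 read pairs in the shallowest case. Normalized counts below are counts divided by the size factor of the library. The marker genes of Treg and CD4 T cells were all detected, including Cd3e, Cd4 and Il2ra. Some markers of other cells were also detected. Of the B cell markers, Ms4a1 and Pax5 had 0 to 4 raw counts in any library, but Cd79a had 130 to 333 and Cd79b 370 to 1341. Of the CD8 and NK cell markers, Ncr1 had 0 in all libraries and Cd8a at most 41, but Cd8b1 had 756 to 2226 and Eomes 81 to 393. In bulk RNA, fewer cells that express a gene and less RNA per cell cannot be told apart. The labels number the replicates without saying that each is a separate mouse, so the p values measure only the spread between these samples, which may be technical.

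RUNX proteins bind DNA as heterodimers with CBFβ, which has no DNA-binding domain of its own and raises their affinity. Runx1 is needed for blood stem cells and silences Cd4 in early thymocytes, Runx3 is needed for the CD8 T cell program, and RUNX-CBFβ binds the Foxp3 locus and keeps it expressed in dividing Treg cells. ETS factors such as Ets1 occupy many T cell enhancers and the Foxp3 locus. NFAT proteins wait in the cytoplasm until calcium activates the phosphatase calcineurin, which strips phosphates from them and lets them enter the nucleus, where they form complexes with AP-1 or with Foxp3. Satb1 organizes chromatin in thymocytes, Bach2 restrains effector genes, and Foxp1 is a forkhead factor of resting T cells that binds motifs like those of Foxp3.

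The promoters of the genes hold letters that belong to these factors themselves. Promoter windows of 300 bases, from 250 before to 50 after each annotated start, were read from RefSeq (GRCm38.p6) for 8 of the 10 genes, which have 18 windows. Ets1 and Nfatc1 had no entry. Each of the 18 windows was found once in GRCm39, and positions are given in that build. The windows below were chosen after the expression values had been seen and are a description of letters, not of binding. Capitals mark the match, printed 5′ to 3′ along the strand of the gene. The distal promoters of Runx1 and Runx3 are shown first because both hold the RUNX core motif, spelled TGTGGT, as a tandem pair on the strand opposite to the gene:

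Runx1 (chr16:92622913-92622942, minus strand): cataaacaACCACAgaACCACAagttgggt
Runx3 (chr4:134847814-134847843, plus strand): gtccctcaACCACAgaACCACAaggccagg

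The copies start 8 bases apart in both genes. In Runx1 the first lies 29 bases after the start and the whole 30-base stretch is annotated exon. In Runx3 the first lies 134 bases before the start, outside any exon of the gene. One copy of the motif on either strand occurs in 16.8% of the 32851 windows of the table, and the pair at this spacing occurs in 7 of them, or 0.0213%. Those 7 windows belong to Runx1, Runx2, Runx3 and 4 other genes, so every mouse RUNX gene has it. The spacing counted is the one seen in the Runx1 and Runx3 windows, and other spacings were not counted. The second set shows a forkhead motif, TGTTTAC, the kind of site that Foxp1 and Foxp3 bind, in the windows of a pair of NFAT genes:

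Nfatc2 (chr2:168443745-168443774, minus strand): ccatggcgctgaGTAAACAggaggaaacag
Nfatc3 (chr8:106785270-106785299, plus strand): atcatgcgctaaGTAAACAagactgagtcc

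This motif occurs in 3.65% of all windows and begins 185 and 168 bases before the start of Nfatc2 and Nfatc3. The third shows the ETS motif CCGGAAG in the one Bach2 window of the table, 12 bases before a RefSeq start that lies well inside the gene as counted here, not at its 5′ end:

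Bach2 (chr4:32417411-32417440, plus strand): aacgggctttccCTTCCGGtctaggtggac

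The ETS motif occurs in 8.86% of all windows. An NFAT motif, GGAAAA, which occurs in 23.4% of windows, was present in 3 of the 5 Satb1 windows (not shown), at 2 distinct sites, since a pair of those windows overlaps and holds the same site. The AP-1 motif TGANTCA, which occurs in 7.81% of windows, was in none of the 18. No window of Cbfb or Foxp1 held any of the 5 motifs. Both strands were searched for each motif.

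None of the 10 genes passed the test between the groups. In DESeq2 at a Benjamini-Hochberg adjusted p under 0.05, 0 of 10 were called, against 284 of 16363 genes tested, or 1.74% (1.4% up and 0.336% down with Foxp3 degraded). The edgeR quasi-likelihood test also called 0 of them, against 0.373% of all genes. Runx3 alone of the 10 had an unadjusted p under 0.05 in either tool. In DESeq2, 1122 of the 16363 genes tested had such a p. The median log2 fold change of the 10 was 0.09, against 0.00 for all genes tested, with 7 above and 3 below 0. The intervals differ widely in what they allow, from about 14% lower to 4% higher for Foxp1 to a fold of 0.78 to 1.87 for Nfatc3.

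**Figure D1:**
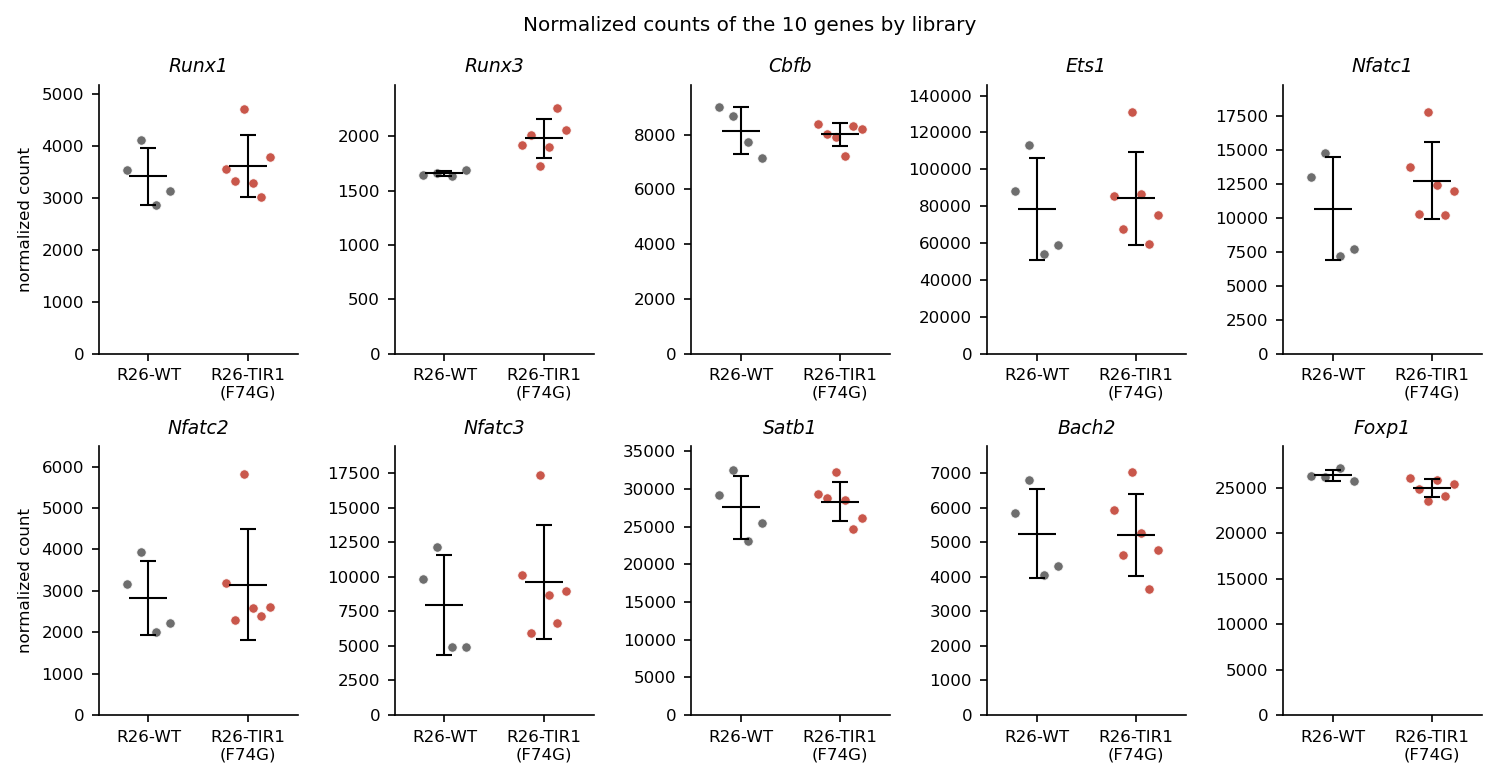
Normalized counts (y axes, from 0) of the 10 genes in each of the 4 R26-WT (grey) and 6 R26-TIR1(F74G) (red) libraries, with bars for mean ± SD. The groups overlap for 9 genes, and for Runx3 each red point lies above 1690, the highest R26-WT value.

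Runx3 was the gene of the 10 whose groups did not overlap. Its normalized counts in R26-WT were 1648, 1665, 1632 and 1690. In R26-TIR1(F74G) the lowest was 1731, the median 1969 and the highest 2264. Each of these 6 libraries thus exceeded the highest R26-WT value, a separation that 2.37% of all genes tested showed in one direction or the other. Its mean was 1659 ± 25 (SD, n = 4) against 1983 ± 178 (n = 6), a log2 fold change of 0.26 ± 0.10 (SE) with a 95% interval of 0.07 to 0.45, or 1.05- to 1.36-fold. The unadjusted p was 0.00816 and the adjusted p 0.248 in DESeq2, so the difference did not pass the test. The 4 R26-WT libraries lay close together, with a coefficient of variation of 1.51% against 8.96% in R26-TIR1(F74G). At 1692 to 2070 raw counts in R26-WT, counting error alone would be expected to give a spread wider than that 1.51%. Another fit held 1 surrogate variable, a source of variation estimated from the data. There the log2 fold change was 0.28 with an adjusted p of 0.00143 in DESeq2, and 4.54% of all genes were called. That variable ordered the 10 libraries in the reverse of the length slope described below. Runx3 lies at chr4:134847963-134905301 on the plus strand (GRCm39), with 5.003 kb of exon that no other gene shares.

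Runx3 is also expressed in CD8 T cells and NK cells, and the markers of those cells are given beside it. Of the 6 markers 5 could be tested, and 1 was called: Eomes, a T-box factor of memory CD8 T cells and NK cells, rose, with a normalized count of 109 ± 30 in R26-WT and 302 ± 63 in R26-TIR1(F74G) (log2 fold change 1.47 ± 0.23, adjusted p = 4.54e-08 in DESeq2 and 0.0162 in edgeR). The normalized counts of Cd8a were 7.32 to 32.6 in R26-WT and 0 to 21.2 in R26-TIR1(F74G). Cd8b1 had 1163 to 1812 in R26-WT and 1076 to 1337 in R26-TIR1(F74G), with a log2 fold change of -0.23 that did not pass the test. The sum of all markers of this list was 1331 to 1948 in R26-WT and 1379 to 1753 in R26-TIR1(F74G). Most of that sum is Cd8b1, so it does not reflect Eomes. The part of such cells in the value of Runx3 was not tested.

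Runx1 and Cbfb gave no such separation. Runx1 had 3539, 4111, 2855 and 3126 normalized counts in R26-WT and, in R26-TIR1(F74G), a lowest value of 3007, a median of 3439 and a highest of 4698. Only replicate 7 of R26-TIR1(F74G) lay above the R26-WT range. The log2 fold change of Runx1 was 0.08 ± 0.16, with a 95% interval of -0.23 to 0.39. Cbfb had 9014, 8678, 7750 and 7131 in R26-WT and 7224 to 8397 with a median of 8117 in R26-TIR1(F74G). All 6 of those values lay inside the R26-WT range, and the log2 fold change was -0.02 ± 0.10 (interval -0.22 to 0.17). Runx1 lies at chr16:92398354-92623037 (minus strand) and shares 0.881% of its exon bases with Gm26626 on the other strand, which the counting did not tell apart. Cbfb lies at chr8:105897306-105944621 (plus strand) and shares none.

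Within the RUNX family, the mRNA levels of Runx1 and Runx3 per kb of exon were of similar size in R26-WT. The length counts all annotated exons, 12.03 kb for Runx1 and 5.003 kb for Runx3, which need not match the transcripts expressed. Per kb of exon, Runx1 had 0.854 ± 0.135 (SD, n = 4) of the level of Runx3 in R26-WT and 0.769 ± 0.193 (n = 6) in R26-TIR1(F74G), with ranges of 0.728 to 1.03 and 0.553 to 1.13. The ranges overlap. The partner Cbfb stood far above both, at 2340 ± 247 normalized counts per kb in R26-WT against 283 ± 45 for Runx1 and 332 ± 5.00 for Runx3. Of 8 RUNX relatives and corepressors, 6 were tested and 0 called in either direction (median log2 fold change 0.13). The gene with the smallest p among them was Runx2, the bone regulator of the family, with 155 to 275 normalized counts in R26-WT and 156 to 542 in R26-TIR1(F74G).

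Ets1 was the most abundant of the 10. Its normalized counts in R26-WT were 88051, 113200, 53804 and 59125. In R26-TIR1(F74G) they ran from 59295 to 131160 with a median of 80205. Within R26-WT alone the highest library had 2.1 times the lowest, so the spread inside the group was far wider than the difference of the means, 78544 ± 27570 against 84165 ± 25250. The log2 fold change was 0.10 ± 0.25 (interval -0.40 to 0.60). Leaving out replicate 7 of R26-TIR1(F74G) turned it to -0.07, and leaving out R26-WT replicate 3 or 4 also put it below 0. Ets1 lies at chr9:32547517-32669116 (plus strand). Of 14 other ETS genes 13 were tested and 0 called (median 0.07), with the smallest p for Etv6, a repressor of the family, at a log2 fold change of 0.44 (DESeq2 adjusted p = 0.685, and 0.00982 with 1 surrogate variable, where Etv6 and Elf1 were called).

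The NFAT genes had the widest intervals of the 10 together with Ets1. Nfatc1 had 13047, 14785, 7160 and 7712 normalized counts in R26-WT and 10204 to 17821 with a median of 12206 in R26-TIR1(F74G). The 4 R26-WT libraries thus fell into a high and a low pair, and every R26-TIR1(F74G) value exceeded that low pair. Its log2 fold change was 0.26 ± 0.24 (interval -0.21 to 0.72). Nfatc2, an NFAT known to bind DNA together with Foxp3, had 3166, 3947, 2012 and 2211 in R26-WT and 2297 to 5816 with a median of 2599 in R26-TIR1(F74G), and its log2 fold change was 0.15 ± 0.28 (interval -0.40 to 0.70). Nfatc3 had 9813, 12161, 4909 and 4951 in R26-WT and 5948 to 17359 with a median of 8809 in R26-TIR1(F74G), and its log2 fold change was 0.27 ± 0.32 (interval -0.36 to 0.91). In all 3 genes the same R26-WT pair, replicates 1 and 2, was high, and replicate 7 was the highest of R26-TIR1(F74G). Without replicate 7 the log2 fold change of Nfatc2 was -0.12 and that of Nfatc3 0.02. Nfatc2 lies at chr2:168318330-168443577 (minus strand). Nfatc3 lies at chr8:106785472-106857169 (plus strand) and shares 1.87% of its exon bases with Esrp2 on the other strand.

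The proportions among the NFAT genes were steadier than their levels. All 3 genes rose with the library length slope described below, and a ratio takes out a trend that its genes share. The steadiness is therefore not a trait particular to NFAT genes. Per kb of exon, Nfatc1 had 5.28 ± 0.40 (SD, n = 4) times the level of Nfatc2 in R26-WT and 6.02 ± 0.87 (n = 6) in R26-TIR1(F74G), with overlapping ranges of 4.94 to 5.84 and 4.34 to 6.78. Nfatc3 had 2.45 ± 0.40 and 2.75 ± 0.30 times the level of Nfatc2. The ratio of Nfatc1 to Nfatc3 was 2.18 ± 0.23 in R26-WT and 2.20 ± 0.37 in R26-TIR1(F74G). Nfatc4 had no count in any library.

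The control of NFAT held the one gene of its pathway list that changed. Of 20 genes for NFAT relatives and calcium-calcineurin control, 17 were tested, and Ppp3cc, the gamma isoform of the calcineurin catalytic subunit, was higher in R26-TIR1(F74G). It had 5430, 4637, 6342 and 5836 normalized counts in R26-WT and 8362 to 12370 with a median of 9773 in R26-TIR1(F74G). The groups did not overlap. Its log2 fold change was 0.84 ± 0.14, or 1.49- to 2.15-fold (adjusted p = 3.50e-07 in DESeq2 and 0.0155 in edgeR). The other catalytic isoforms did not pass the test, with log2 fold changes of -0.15 ± 0.12 for Ppp3ca and 0.01 ± 0.12 for Ppp3cb, nor did the regulatory subunit Ppp3r1 at -0.07 ± 0.10. With 1 surrogate variable Ppp3ca was called (adjusted p = 0.0486 in DESeq2), as was Stim2 of the same list. Ppp3cc had 1863 ± 241 normalized counts per kb in R26-WT and 3337 ± 439 in R26-TIR1(F74G), against 465 ± 46 and 420 ± 46 for Ppp3ca. The median of the list was 0.00. Ppp3cc shares 3.05% of its exon bases with Gm49417 on the other strand, which had 34 to 136 raw counts.

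Satb1, Bach2 and Foxp1 showed no difference that passed the test. Satb1 had 29190, 32603, 23059 and 25498 normalized counts in R26-WT and 24770 to 32273 with a median of 28671 in R26-TIR1(F74G). All 6 values lay inside the R26-WT range, and the log2 fold change was 0.04 ± 0.13 (interval -0.21 to 0.29). Bach2 had 5840.5, 6798, 4046 and 4324 in R26-WT and 3636 to 7039 with a median of 5014 in R26-TIR1(F74G). The R26-TIR1(F74G) libraries spanned the whole R26-WT range, and the log2 fold change was -0.01 ± 0.21 (interval -0.41 to 0.39). Satb1 lies at chr17:52043215-52140318 (minus strand) and shares 1.49% of its exon bases with Gm36931 and Gm6934. Bach2 lies at chr4:32238804-32586108 (plus strand) and shares 5.40% with its antisense gene Bach2os, which had 41 to 138 raw counts.

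Foxp1 was the most precisely measured of the 10. It had 26277, 26216, 27222 and 25783 normalized counts in R26-WT and 23512 to 26123 with a median of 25116 in R26-TIR1(F74G). In R26-TIR1(F74G) 4 of 6 libraries lay below the R26-WT range and none above it, yet the means, 26375 ± 606 and 24980 ± 1026, were close. The log2 fold change was -0.08 ± 0.07 (interval -0.21 to 0.05) and did not pass the test. Foxp1 lies at chr6:98902299-99499682 (minus strand) and shares 3.16% of its exon bases, most of them with Gm20696, a gene on the same strand with 1359 to 3178 raw counts. Of 11 relatives of Satb1, Bach2 and Foxp1, 9 were tested and 0 called (median -0.03). Foxo1, a forkhead factor that keeps T cells in the resting state, had the smallest p, with 21028 to 23070 normalized counts in R26-WT and 15778 to 19693 in R26-TIR1(F74G), a log2 fold change of -0.27 and an adjusted p of 0.145 in DESeq2 (0.00331 with 1 surrogate variable, where it was called).

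**Figure D2:**
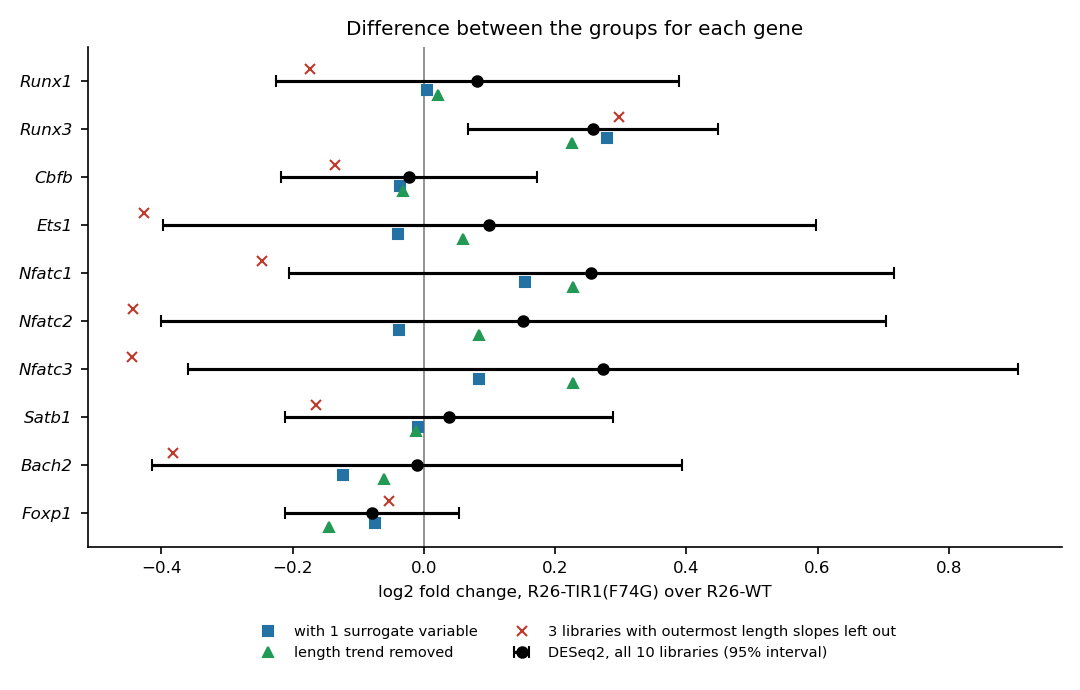
Log2 fold change of R26-TIR1(F74G) over R26-WT (x axis) for each of the 10 genes, as the DESeq2 estimate over 10 libraries with its 95% interval (black) and as point estimates of 3 other fits (colours). The interval of Runx3 alone lies above 0, and leaving out 3 libraries (crosses), which keeps 2 R26-WT libraries, moves the NFAT genes and Ets1 from above to below 0.

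The order of levels can be compared between genes per kb of exon only roughly, since the length is that of all annotated exons together. The length of the transcripts expressed was not measured. In R26-WT, Ets1 stood first at 9267 ± 3253 normalized counts per kb, followed by Cbfb at 2340 ± 247 and Foxp1 at 1918 ± 44, and these 3 did not overlap each other. Satb1 followed at 1450 ± 220, Nfatc1 at 1429 ± 511, Nfatc3 at 679 ± 309 and Bach2 at 528 ± 131, with each range overlapping the next. Runx3 at 332 ± 5.00, Runx1 at 283 ± 45 and Nfatc2 at 268 ± 85 closed the order, and Runx3 did not overlap Bach2 above it. In R26-TIR1(F74G) the order was the same except that Nfatc1, at 1706 ± 379, stood before Satb1, at 1489 ± 137, with overlapping ranges. There only Ets1, at 9930 ± 2979, and Cbfb, at 2303 ± 124, were set apart from the gene below them. Over all 10 libraries Ets1 lay above 98.9% of the genes tested and Nfatc2 above 58.6%.

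**Figure D3:**
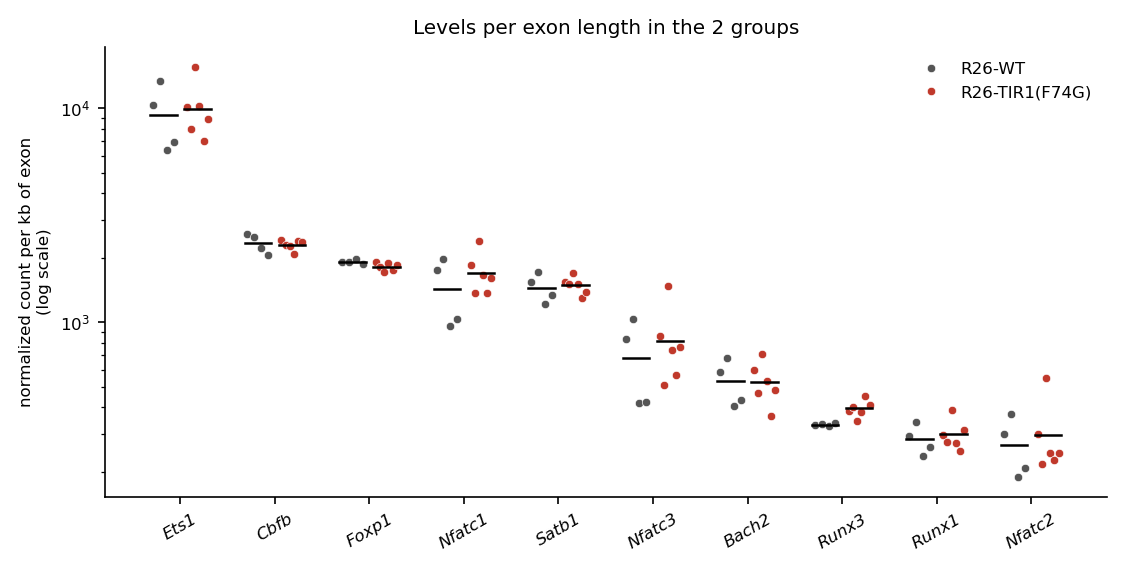
Normalized counts per kb of exon (y axis, log scale) of the 10 genes in the 4 R26-WT (grey) and 6 R26-TIR1(F74G) (red) libraries, with a line at each mean. The mean of Ets1 is 9267 in R26-WT and 9930 in R26-TIR1(F74G), and those of Runx1, Runx3 and Nfatc2 lie between 268 and 396.

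Most of the spread within the groups was shared between genes and followed a property of the library. For each library a length slope was computed, the change in log2 level, relative to the mean of all libraries, for each doubling of the exon length over all genes tested. It ran from -0.0861 to 0.0694 in R26-WT and from -0.0552 to 0.105 in R26-TIR1(F74G), so it varied within both groups and did not separate them. The log2 levels of 7 genes rose with it across the 10 libraries, with Pearson r of 0.99 for Ets1, 0.985 for Nfatc3, 0.964 for Nfatc1, 0.941 for Nfatc2 and Bach2, 0.932 for Runx1 and 0.898 for Satb1. In a two-sided permutation test, each had a Benjamini-Hochberg adjusted p, over the 10 genes, of 0.000743 or lower. Spearman's rho of the 7 was 0.879 to 0.988 (adjusted permutation p of 0.00226 or lower). The smallest p that the permutations can give is 2e-05. Without the 2 libraries farthest from the median slope, r of the 7 stayed between 0.823 and 0.979. Within the 6 R26-TIR1(F74G) libraries it was 0.799 to 0.99, where adjusted exact permutation p values were 0.0139 to 0.0521, and 4 R26-WT libraries were too few for a value. Level and slope come from the same libraries, and 12.6% of all genes tested had an r of 0.898 or more, or 36.7% of the 2450 genes at least as long as Nfatc1, the shortest of the 7 at 7.469 kb.

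The other 3 genes did not follow the slope. Across the 10 libraries r was -0.225 for Runx3, 0.39 for Cbfb and -0.284 for Foxp1 (adjusted permutation p of 0.331 to 0.529), with rho of -0.103, 0.515 and -0.0667 (adjusted 0.168 to 0.866). Without the 2 outermost libraries r was -0.459, 0.542 and 0.712. Within R26-TIR1(F74G), Runx3 was lower where the slope was higher (r = -0.908, exact permutation p = 0.0222, adjusted 0.037), whereas r was -0.245 for Cbfb and -0.206 for Foxp1. Foxp1 is the exception in length, since at 13.75 kb it is longer than 97.5% of the genes tested and longer than 6 of the 7 genes that followed the slope. Among the 7, the 21 pairs of genes had r of 0.839 to 0.973 (median 0.922). Pairs of 1 of the 7 with Runx3, Cbfb or Foxp1 had r of -0.448 to 0.46.

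**Figure D4:**
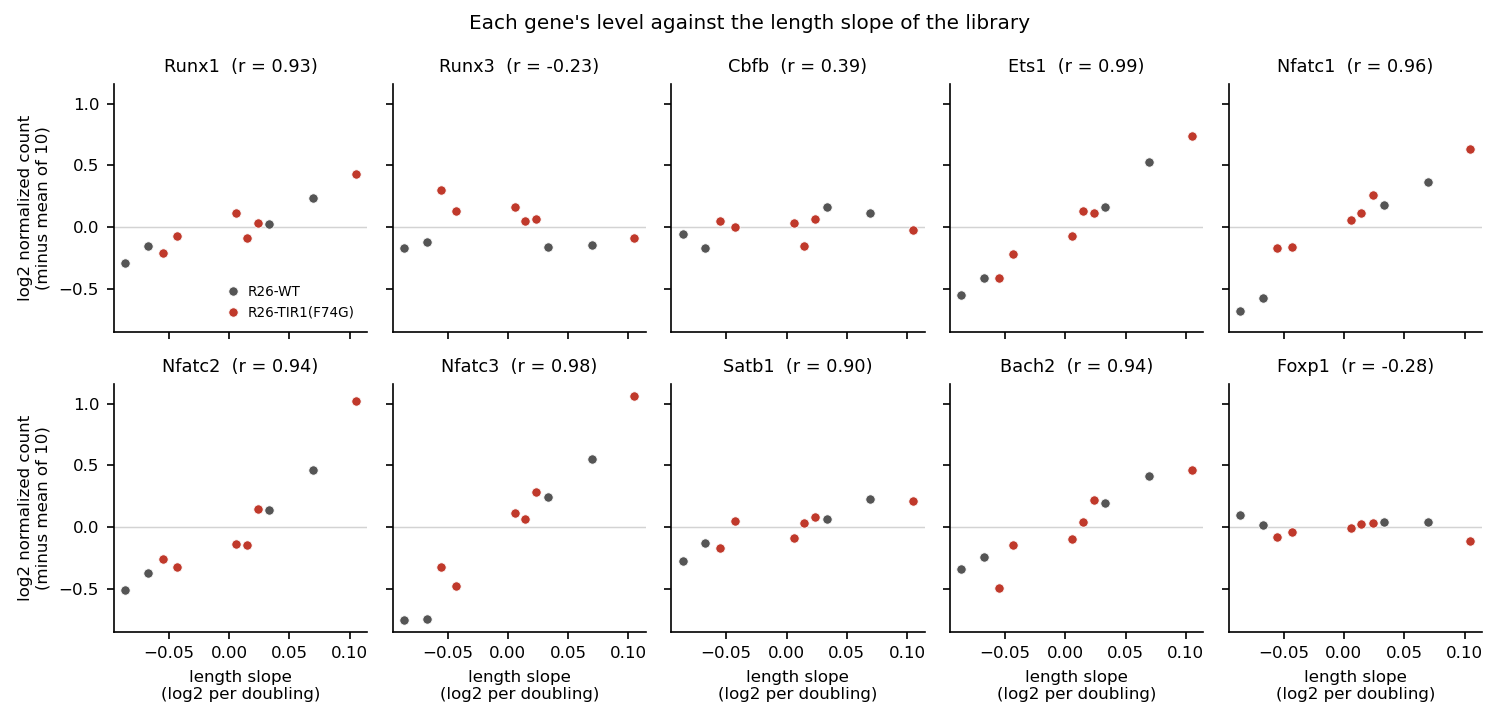
Log2 normalized count of each gene minus its mean over the 10 libraries (y axis) against the length slope of the library (x axis, log2 change per doubling of exon length), with R26-WT in grey and R26-TIR1(F74G) in red. Runx1, Ets1, the NFAT genes, Satb1 and Bach2 rise along it in both groups. Over the 10 libraries Cbfb and Foxp1 show no such rise, and Runx3 falls along it within R26-TIR1(F74G) (r = -0.908).

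Removing the length trend from each library narrowed some genes and widened others. The SD of log2 levels in R26-WT went from 0.228 to 0.0639 for Runx1, from 0.355 to 0.105 for Bach2 and from 0.675 to 0.411 for Nfatc3. For Foxp1 it went from 0.0329 to 0.295, and for Runx3 from 0.0217 to 0.125. In R26-TIR1(F74G) the SD narrowed for Runx1, Ets1, the NFAT genes and Bach2, but widened for Satb1, from 0.133 to 0.191. The ranges of Runx3 then overlapped, at 1553 to 1836 in R26-WT and 1563 to 2444 in R26-TIR1(F74G). Its log2 fold change was 0.23 with an adjusted p of 0.735 in DESeq2. The surrogate variable ordered the 10 libraries in the exact reverse of the length slope. Both fits thus adjusted for much the same library property, yet only the surrogate variable fit called Runx3 (adjusted p = 0.00143 in DESeq2). With the 3 libraries of the outermost slopes left out (R26-WT replicates 3 and 4 and R26-TIR1(F74G) replicate 7), a choice made after seeing the data, the log2 fold changes were -0.43 for Ets1, -0.44 for Nfatc2 and -0.45 for Nfatc3, the reverse of the sign in the full set. That setting keeps 2 R26-WT libraries, replicates 1 and 2, which had the high values of these genes. Since it removes low-slope R26-WT libraries and the R26-TIR1(F74G) library of highest slope, genes that rise with the slope move down by its construction, and the turn is no separate evidence of direction. None of the 10 was called in that setting either, and Nfatc2 had the lowest adjusted p at 0.0704 in DESeq2. In the alternatives other than that setting, 6 of the 10 genes changed sign at least once, and Nfatc1 and Nfatc3 did so only in that setting. Runx3 stayed above 0 (0.22 to 0.30) and Foxp1 below 0 (-0.14 to -0.05) in all 17 alternatives run.

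Among all genes with a mean normalized count of at least 50, those whose pattern over the 10 libraries was most like that of Runx3 included Gm37065 (Pearson r = 0.938) and Lgals3bp, which encodes a secreted glycoprotein (r = 0.936), on variance-stabilized counts, neither of them called. For Foxp1 they were Mroh2a (r = 0.918), Tada2a, a subunit of histone acetyltransferase complexes (r = 0.881), and Ephx4 (r = 0.876), none of them called. These are among the highest values of all such genes over 10 libraries and are given as a description.

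Other partners of Foxp3 were tested as a list of 20, of which 2 were higher in R26-TIR1(F74G) and 0 lower (median log2 fold change 0.08). Tcf7, the Wnt-pathway factor of naive and stem-like T cells, went from 57875 ± 7140 normalized counts to 77714 ± 7248 (log2 fold change 0.43 ± 0.12, adjusted p = 0.0257 in DESeq2 and 0.121 in edgeR). Ezh2, the enzyme that methylates lysine 27 of histone H3, went from 1962 ± 105 to 2512 ± 84 (0.36 ± 0.08, adjusted p = 0.000647 in DESeq2 and 0.123 in edgeR). The groups of both genes did not overlap. With the length trend removed, Ezh2 was no longer called (adjusted p = 0.218 in DESeq2).

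Known targets of the 10 factors were a list of 10, all tested, of which 1 was called. Il4, the signature cytokine of helper type 2 cells and a classic NFAT target, had 16.7, 9.84, 7.32 and 10.1 normalized counts in R26-WT and 75.9 to 366 with a median of 110 in R26-TIR1(F74G), a log2 fold change of 3.76 ± 0.46 (adjusted p = 6.35e-13 in DESeq2 and 0.0110 in edgeR). The groups did not overlap. Of 8 genes of resting T cells 1 was called, Tcf7 again. Of 12 genes of activated Treg cells 1 was higher and 1 lower. The inhibitory receptor Tigit had 42.8 ± 24.2 against 141 ± 99 (log2 fold change 1.73 ± 0.45, adjusted p = 0.0102 in DESeq2 and 0.245 in edgeR), and the costimulatory receptor Tnfrsf9 had 7734 ± 609 against 5497 ± 502 (-0.49 ± 0.11, adjusted p = 5.65e-04 in DESeq2 and 0.0510 in edgeR). Neither was called in edgeR, and Tigit was not called with 1 surrogate variable either (adjusted p = 0.0551 in DESeq2).

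Genes of cell division moved with the groups. Of 18 proliferation genes 13 were called higher and 0 lower (median log2 fold change 1.19), among them Mki67, a marker of cycling cells, at 1.70 ± 0.40, Top2a, the DNA topoisomerase of mitosis, at 1.61 ± 0.35, Rrm2, which supplies deoxynucleotides, at 1.44 ± 0.21, and Stmn1, a microtubule regulator, at 1.30 ± 0.15. In edgeR 6 of these 13 were called, Rrm2 and Stmn1 among them, whereas Mki67 (adjusted p = 0.176) and Top2a (0.129) were not. The summed normalized counts of the list were 23250 to 25900 in R26-WT and 29740 to 36390 in R26-TIR1(F74G). Like Runx3, Ppp3cc and Ezh2, this sum did not overlap between the groups, and its part in their values was not tested. Of 11 Treg and CD4 T cell markers 0 were called (median -0.12), against 4 with 1 surrogate variable (Il2ra, Tnfrsf18, Izumo1r and Cd4, with adjusted p of 5.20e-12 to 0.0347 in DESeq2). The summed B cell markers were 846 to 1382 against 731 to 1188, the myeloid markers 94.7 to 134 against 95.5 to 157 and the erythroid markers 10.1 to 25.6 against 6.08 to 15.9 in R26-WT and R26-TIR1(F74G), with 0 genes called in each, so that the ranges of these 3 lists overlapped.

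**Figure D5:**
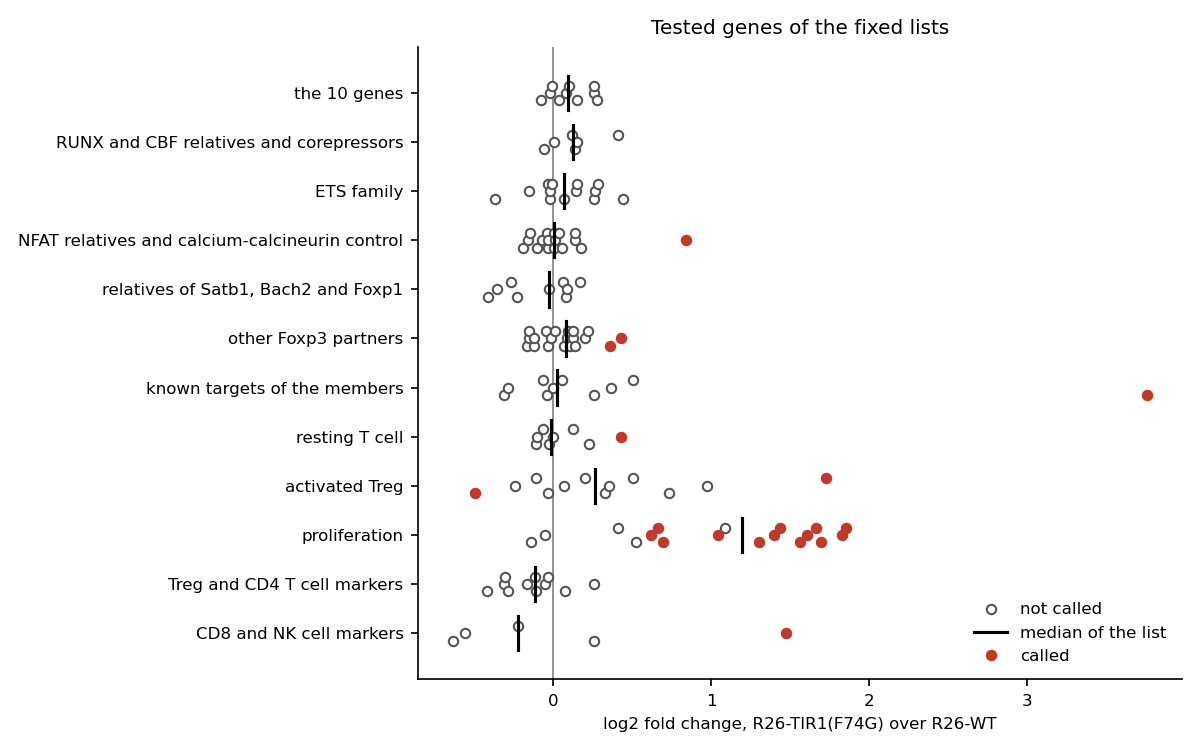
Log2 fold change of R26-TIR1(F74G) over R26-WT (x axis) of every tested gene in 12 lists (rows), filled red where called in DESeq2 at an adjusted p under 0.05, with a line at the median of each list. The 10 partner genes lie between -0.08 and 0.27 with none called, and the proliferation list has a median of 1.19 with 13 called.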

How the data were processed

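RNA of Treg cells (SMART-Seq v4, amplified, no molecular identifiers) had been sequenced in 4 R26-WT and 6 R26-TIR1(F74G) libraries. The deposited files hold raw counts per gene that the authors made with featureCounts 2.1.1 (GENCODE M30, GRCm39), as read pairs with a mapping quality of at least 30, without strand or multi-gene counting. Both STAR, in the methods, and Bowtie2, in the submitters' processing notes, are named as aligner. Reads shared by overlapping or near-identical genes were thus left uncounted, and amplification from little RNA can alter length coverage.

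Here, genes whose mean count reached 10 were tested with DESeq2 1.42.0 (R 4.3.3, genotype as the only term, two-sided Wald test, Benjamini-Hochberg adjusted p under 0.05). Levels were counts over size factors, and per kb of all annotated exons of the gene. Alternatives used edgeR 4.0.16, limma 3.58.1 (voom), TMM scaling, no filter, a lowess fit on exon length, 1 surrogate variable (sva 3.50.0), and each library left out. The DESeq2, edgeR, voom, length and surrogate variable fits were tested on simulated data that held no length slope between libraries. The length and surrogate variable fits were thus not tested on the trend they adjust for. Permutation tests drew 100000 resamples for 10 libraries and were exact for 6. The genes and lists were chosen with earlier results of these data known. Named were the 10 genes, called genes of the other lists or the one of smallest p, and the 3 genes most correlated with Runx3 and Foxp1 (smallest p), of which some are not reported here. Mitochondrial genes had 0 counts in all libraries. Replicates differed by more than sampling noise (chi-square per degree of freedom 9.45 to 215 over 21 pairs).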

Additional observations from a re-analysis of the deposited data

Results flagged for a closer look

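In a check of single libraries against the rest of their group, 3 values stood apart, all in replicate 7 of R26-TIR1(F74G). Its normalized count was 5816 for Nfatc2, where the nearest of the other 5 libraries had 3181, a gap of 0.749 of the range of the group. For Nfatc3 it was 17359 against a nearest value of 10129 (0.634 of the range), and for Foxp3 it was 16059 against 9851 (0.669 of the range). By Dixon's criterion at the 95% level for 6 libraries, these 3 of 34 groups of values examined were past the limit, where chance gives about 1.7. Replicate 7 also had the highest length slope of all 10 libraries, 0.105.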

How the results depend on the processing

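No paired analysis was possible because R26-WT has replicates 1 to 4 and R26-TIR1(F74G) has 5 to 10. None of the 10 genes was called in the main fit or in 16 of 17 alternatives. With 1 surrogate variable, 1 was called (Runx3, log2 fold change 0.279). Leaving out each library in turn gave 0 to 0 of the 10 called. The count of called genes in the other lists was 20 in the main fit (19 higher, 1 lower), 9 with edgeR, 10 with voom, 33 with 1 surrogate variable (25 higher, 8 lower) and 14 to 19 with each library left out. Over all genes, 284 were called in the main fit, 61 with edgeR, 80 with voom, 743 with 1 surrogate variable and 538 without the 3 libraries of outermost length slope. The sign turned, with no gene called, for Bach2 with voom (0.0594), Satb1 with the length trend removed (-0.0118) and, with 1 surrogate variable, Ets1 (-0.0398), Nfatc2 (-0.0375) and Satb1 (-0.00857). Without those 3 libraries, a choice made after seeing the data that keeps 2 R26-WT libraries and moves genes that rise with the slope down by construction, it turned for Runx1 (-0.174), Ets1 (-0.427), Nfatc1 (-0.246), Nfatc2 (-0.443), Nfatc3 (-0.445) and Satb1 (-0.165). With each library left out, log2 fold changes ran from -0.00911 to 0.185 for Runx1, -0.0797 to 0.0296 for Cbfb and -0.0716 to 0.33 for Ets1. For Nfatc1 they ran from 0.106 to 0.454, for Nfatc2 from -0.117 to 0.355 and for Nfatc3 from 0.0192 to 0.553. For Satb1 they ran from -0.0376 to 0.129 and for Bach2 from -0.116 to 0.139. The adjusted p of Runx3 ranged from 0.00143 to 0.735 over its alternatives in DESeq2, edgeR and limma. For the other settings the cause was not tested. At these depths counting error is in general small beside the spread between libraries. It is not for Runx3 in R26-WT, where the coefficient of variation was 1.51% at 1692 to 2070 raw counts. Nor is it for Il4 there, at 9 to 21 raw counts.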
